A study of Homo sapiens with 6 samples.

Results

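The 8 genes described here encode kinases that drive mitosis and proteins of the spindle assembly checkpoint: AURKA, PLK1, PLK4, NEK2, TTK, BUB1, BUB1B and MAD2L1. They were chosen by gene symbol from the 4546 genes of a deposited table that sets A549 cells given mitoxantrone against A549 cells given DMSO, and all 8 symbols were found there, each in 1 row. A549 is an established human lung adenocarcinoma line, and mitoxantrone is an anthracenedione that poisons DNA topoisomerase II. Cells received 50 nM mitoxantrone for 48 hours (3 libraries) or the solvent DMSO at a 1/1000 dilution for 48 hours (3 libraries), and RNA was sequenced from whole cultures. The labels do not say whether the 3 libraries of a group came from separate cultures, so p-values measure the spread between these libraries, which may be technical.

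Mitosis is started and ordered by protein kinases. AURKA (Aurora A) matures centrosomes and builds the bipolar spindle, PLK1 acts at centrosomes, kinetochores and the midbody, PLK4 sets centriole number, and NEK2 separates the centrosomes. The spindle assembly checkpoint holds back anaphase while any kinetochore lacks microtubules. TTK (MPS1) starts the signal, and BUB1 builds the kinetochore platform. MAD2L1 (MAD2) and BUB1B (BUBR1) join BUB3 and CDC20 in the mitotic checkpoint complex, which inhibits the anaphase-promoting complex. In dividing cells these genes are transcribed mainly in G2 and M phase.

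Library totals ran from 16681380 to 19352443 reads with mitoxantrone and from 20380674 to 21781220 reads with DMSO. Of 9 markers of the labelled line (keratins, E-cadherin and detoxifying enzymes abundant in A549), 6 were listed. Their summed level was 4648 to 4911 FPKM (reads of a gene divided by its length and by the depth of the library) with mitoxantrone and 1602 to 1882 FPKM with DMSO. Of 7 fibroblast markers only COL1A1 was listed, at 1.21 to 1.53 FPKM with mitoxantrone and 3.09 to 3.51 FPKM with DMSO. Of 7 leukocyte markers CD14, ITGAX and CD8A were listed, summing to 3.85 to 4.14 FPKM with mitoxantrone and 0.87 to 1.04 FPKM with DMSO. The pan-leukocyte gene PTPRC was not listed. Only genes past the authors' threshold are listed, so a marker that is not listed may still be expressed. The part of other cell types in the results below was not tested.

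All 8 genes were lower with mitoxantrone, by 12.0-fold (AURKA) to 52.0-fold (NEK2), and the 3 mitoxantrone libraries lay below the 3 DMSO libraries for each of them. Every gene passed edgeR's quasi-likelihood test, with adjusted p from 1.8e-35 (PLK1) to 6.7e-27 (TTK). The table holds only genes that the authors had selected on these libraries, with an absolute log2 fold change of at least 1.00, so passing the test adds nothing. The authors' selection did not fix the direction: 41.1% of the listed genes were called lower, and 40.8% were lower with groups that did not overlap (98.3% had no overlap in either direction). The 8 genes were, however, chosen with earlier results of these data known. Their shared direction and the shares and medians that follow are therefore description and not a test. A fall of at least 10-fold was reached by 8 of the 8 genes and by 5.06% of all listed genes. The median log2 fold change of the 8 genes was -4.97, against 1.20 over all listed genes and -1.52 over the 1869 listed genes that were lower. In a bulk culture, fewer cells in G2 and M phase and less of these transcripts per dividing cell cannot be told apart.

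**Figure D1:**
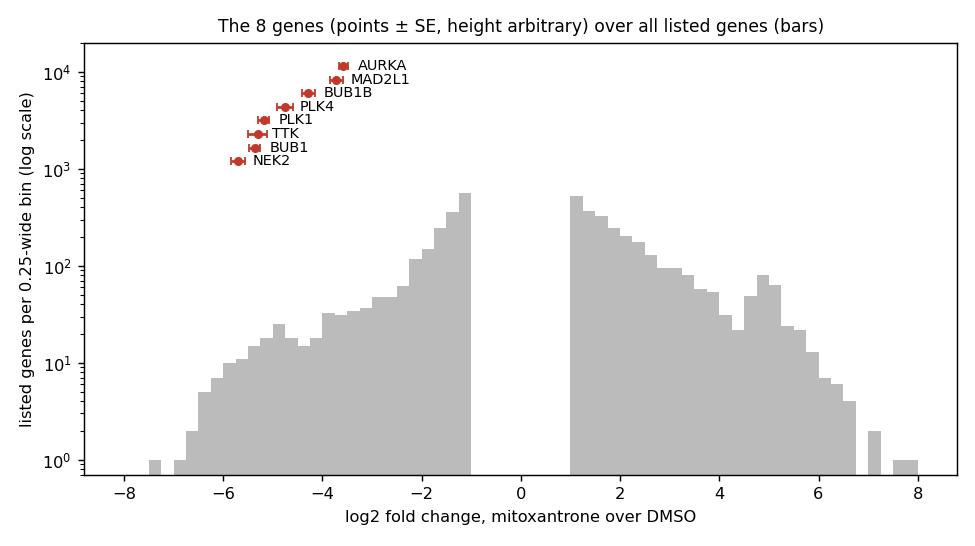
Bars count the 4546 listed genes by log2 fold change, mitoxantrone over DMSO, in bins 0.25 wide on a log axis, and red points give the 8 genes with their SE at arbitrary heights. The points lie between -5.70 (NEK2) and -3.58 (AURKA), in the left tail, and the gap around 0 comes from the authors' selection.

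RefSeq promoter windows, from 250 bases before to 50 after the start of a gene (GRCh38.p14), were at hand for 6 of the 8 genes: BUB1, BUB1B, MAD2L1, NEK2, PLK1 and PLK4. They are shown because the genes fell together and because many G2 and M phase genes are bound by the DREAM and MuvB complexes at a cell cycle genes homology region (TTTGAA or TTCGAA), often near CCAAT boxes. Such a motif, searched on both strands, was found in the windows of 5 of the 6 genes, 5 of 8 windows since PLK4 has 3. It was also in 16.4% of all 35116 windows in the table and in 18.9% of the 1755 windows of other listed genes that were lower. Capitals mark TTTGAA, its reverse complement or TTCGAA in these 30-base stretches, read 5′ to 3′ along each gene:
PLK1 (chr16:23678848-23678877, plus strand): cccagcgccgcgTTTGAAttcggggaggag
BUB1B (chr15:40161034-40161063, plus strand): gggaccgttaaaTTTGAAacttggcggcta
BUB1 (chr2:110678045-110678074, minus strand): ctgcgcggggtaTTCGAAtcggcggcggct
MAD2L1 (chr4:120066807-120066836, minus strand): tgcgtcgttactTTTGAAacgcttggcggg
PLK4 (chr4:127880913-127880942, plus strand): ggcaagcggcgggagattTTCAAAatggga
The motif began at position -29 from the RefSeq start in PLK1 and -23 in BUB1B, and at position 2 in BUB1, 25 in MAD2L1 and 39 in PLK4, where it is on the opposite strand. NEK2 had neither sequence in its window, which says only that these letters are not in these bases.

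CCAAT, on either strand, was in the windows of 5 of the 6 genes, 5 of 8 windows. It was also in 34.6% of all windows and in 39.0% of the 1755 windows of other listed genes that were lower. In PLK4 it lay in a different window from TTTGAA. The 100 bases before the starts of PLK1 and NEK2 show both arrangements, with CCAAT and TTTGAA in capitals:
PLK1 (chr16:23678789-23678888, plus strand): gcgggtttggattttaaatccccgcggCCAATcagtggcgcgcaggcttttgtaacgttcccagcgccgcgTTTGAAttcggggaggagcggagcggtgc
NEK2 (chr1:211675622-211675721, minus strand): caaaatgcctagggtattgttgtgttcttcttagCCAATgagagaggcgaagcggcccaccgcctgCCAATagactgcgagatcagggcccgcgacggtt
PLK1 had CCAAT at -73 and TTTGAA at -29, and NEK2 had CCAAT at -66 and -34. None of the 6 genes had TTTGGCGC, TTTCGCGC or GGCGGGAA, forms of the E2F site that 4.24% of all windows hold on either strand. Of the 1755 windows of other listed genes that were lower, 9.97% held them. Other forms of the site were not searched, so its absence cannot be concluded.

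Among the centrosome and spindle kinases, AURKA (ENSG00000087586; chromosome 20, 54944445 to 54967393 as the table gives it, with no build named) had the highest level per length and the smallest edgeR fold difference, though with limma on log2(FPKM + 1) TTK was the smallest, at -2.46, and AURKA was at -3.31. It was at 2.87, 3.26 and 3.42 FPKM in mitoxantrone libraries 1 to 3, against 40.71, 40.97 and 40.02 FPKM in DMSO libraries 1 to 3. The groups lay far apart, and libraries of a group differed little. In counts divided by size factors (normalized counts), AURKA averaged 185 ± 14.6 with mitoxantrone and 2227 ± 44.1 with DMSO (SD, n = 3 each), a log2 fold change of -3.58 ± 0.09 SE (edgeR, adjusted p = 3.3e-32). Per length, in FPKM, it was the most abundant of the 8 genes in both groups, and made up 53.3% ± 2.77 of their summed FPKM with mitoxantrone and 30.9% ± 0.924 with DMSO.

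PLK1 (ENSG00000166851; chromosome 16, 23688977 to 23701688) ranked after AURKA in level in both groups and had the larger edgeR fold difference. Its values were 0.62, 0.76 and 0.79 FPKM in the mitoxantrone libraries, against 26.96, 28.75 and 28.40 FPKM in the DMSO libraries. All 3 mitoxantrone libraries were under 1 FPKM. The mean of 68.3 ± 7.98 normalized counts with mitoxantrone, against 2502 ± 98.1 with DMSO, was a 36.4-fold difference (log2 fold change -5.19 ± 0.10 SE; edgeR, adjusted p = 1.8e-35).

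NEK2 (ENSG00000117650; chromosome 1, 211836114 to 211848960) had the largest edgeR fold difference of the 8 genes and the 30th largest among the 1869 listed genes that were lower. This order rests on the scale: with limma on log2(FPKM + 1) it was at -3.84 and PLK1 at -4.08. It measured 0.22, 0.34 and 0.39 FPKM with mitoxantrone, against 16.59, 17.99 and 18.82 FPKM with DMSO. The mitoxantrone libraries kept 1.88% of the DMSO mean in normalized counts, 19.0 ± 5.20 against 1010 ± 64.2 (log2 fold change -5.70 ± 0.15 SE; edgeR, adjusted p = 8.8e-32). These mitoxantrone values rest on 11, 18 and 23 reads.

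PLK4 (ENSG00000142731; chromosome 4, 128802016 to 128820350) ranked 7 of 8 in level per length in both groups, with 0.20, 0.18 and 0.25 FPKM in the mitoxantrone libraries and 6.09, 5.88 and 6.35 FPKM in the DMSO libraries. The groups did not overlap, and the mitoxantrone values rest on 15, 14 and 22 reads. It fell 26.9-fold, to 18.8 ± 3.37 normalized counts with mitoxantrone, against 513 ± 15.9 with DMSO (log2 fold change -4.75 ± 0.16 SE; edgeR, adjusted p = 1.1e-27).

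Among the checkpoint genes, TTK (ENSG00000112742; chromosome 6, 80713604 to 80752244), the kinase that starts the signal, was the least abundant of the 8 genes per length in both groups. Its values were 0.08, 0.15 and 0.14 FPKM with mitoxantrone, against 5.22, 4.62 and 5.72 FPKM with DMSO. With mitoxantrone it rested on 6, 12 and 12 reads, and its level there is known less well than that of any other member. The fall was 39.6-fold (11.0 ± 3.32 normalized counts with mitoxantrone, 445 ± 43.8 with DMSO; log2 fold change -5.31 ± 0.19 SE; edgeR, adjusted p = 6.7e-27).

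BUB1 (ENSG00000169679; chromosome 2, 111395275 to 111435691), the kinase that phosphorylates histone H2A at centromeres, was more abundant per length than TTK in both groups. It measured 0.33, 0.26 and 0.39 FPKM in the mitoxantrone libraries, against 14.74, 14.28 and 14.20 FPKM in the DMSO libraries. Normalized counts averaged 39.1 ± 8.26 with mitoxantrone and 1629 ± 32.1 with DMSO, a 41.3-fold fall (log2 fold change -5.37 ± 0.12 SE; edgeR, adjusted p = 7.6e-34).

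BUB1B (ENSG00000156970; chromosome 15, 40453224 to 40513337), the paralog of BUB1 whose protein binds CDC20, had 0.43, 0.45 and 0.68 FPKM with mitoxantrone, against 11.00, 10.23 and 11.35 FPKM with DMSO. Mitoxantrone library 3 was above the other mitoxantrone libraries and still far below every DMSO library. BUB1B fell 19.5-fold, to 46.1 ± 12.2 normalized counts with mitoxantrone, against 911 ± 40.6 with DMSO (log2 fold change -4.28 ± 0.13 SE; edgeR, adjusted p = 2.7e-29).

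MAD2L1 (ENSG00000164109; chromosome 4, 120976763 to 120988229) encodes MAD2, the only one of the 8 proteins that is not related to kinases, and had the edgeR fold difference nearest to that of AURKA. Its values were 0.41, 0.64 and 0.75 FPKM in the mitoxantrone libraries, against 7.74, 8.28 and 9.31 FPKM in the DMSO libraries. The lowest mitoxantrone library was apart from the other mitoxantrone libraries. The mean was 68.0 ± 19.1 normalized counts with mitoxantrone and 909 ± 83.2 with DMSO, a 13.2-fold fall (log2 fold change -3.72 ± 0.13 SE; edgeR, adjusted p = 3.2e-27).

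**Figure D2:**
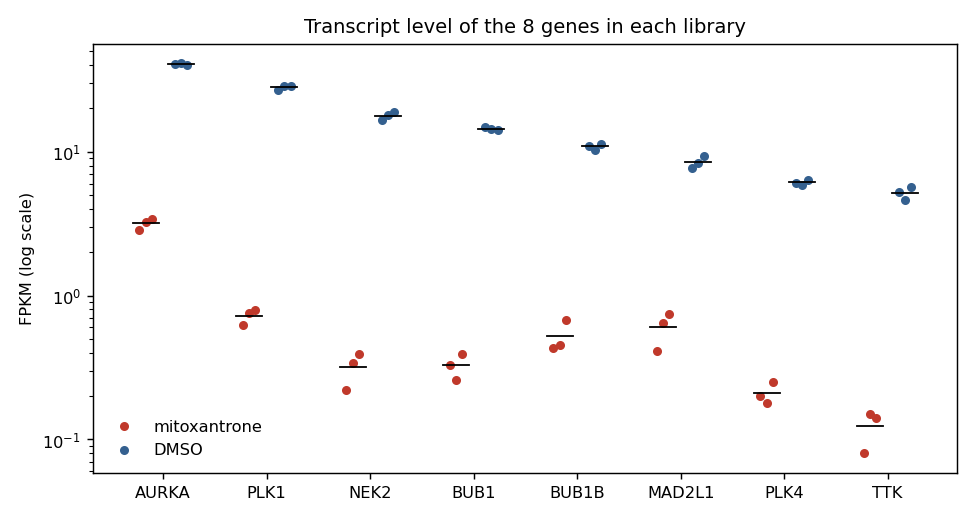
FPKM of the 8 genes on a log axis, ordered by their DMSO mean, with each point 1 library (red, mitoxantrone; blue, DMSO) and each line the mean of 3. AURKA kept 3.18 FPKM with mitoxantrone on average while the other 7 genes had means of 0.72 FPKM or less, and NEK2 and BUB1 dropped below BUB1B and MAD2L1.

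The order of the levels per length differed between the groups. With mitoxantrone it ran AURKA, PLK1, MAD2L1, BUB1B, BUB1, NEK2, PLK4, TTK, from 3.18 ± 0.28 to 0.12 ± 0.04 FPKM. With DMSO it ran AURKA, PLK1, NEK2, BUB1, BUB1B, MAD2L1, PLK4, TTK, from 40.6 ± 0.49 to 5.19 ± 0.55 FPKM (SD, n = 3). The middle 4 genes thus stood in reverse order, with MAD2L1 ranked 3 and NEK2 ranked 6 with mitoxantrone, and NEK2 ranked 3 and MAD2L1 ranked 6 with DMSO. With DMSO no neighbours in the order overlapped in their libraries. With mitoxantrone the libraries of PLK1 and MAD2L1 overlapped, as did those of MAD2L1 and BUB1B, BUB1 and NEK2, and NEK2 and PLK4, so these neighbours did not differ beyond their spread.

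Ratios between pairs of the genes within a library do not depend on how libraries are scaled, and 28 pairs were compared. For 22 pairs the 3 ratios with mitoxantrone did not overlap the 3 with DMSO. The pairs share genes, and the share of such pairs among other listed genes was not computed, so this count is description only. The exact two-sided permutation test cannot go below p = 0.10 with 3 libraries against 3, and its smallest value adjusted over the 28 pairs was 0.127, so no pair passed 0.05. The widest difference was between AURKA and NEK2, whose log2 ratio of normalized counts was 3.28 ± 0.30 with mitoxantrone and 1.14 ± 0.10 with DMSO (SD, n = 3), a difference of 2.14 (exact permutation p = 0.10).

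Among the checkpoint transcripts, BUB1 over BUB1B had a log2 ratio of -0.23 ± 0.23 with mitoxantrone and 0.84 ± 0.08 with DMSO, a difference of -1.07 (exact permutation p = 0.10, n = 3). NEK2 over MAD2L1 was -1.81 ± 0.02 with mitoxantrone and 0.15 ± 0.06 with DMSO, a difference of -1.96 on the log2 scale. AURKA over PLK1 was 1.44 ± 0.06 with mitoxantrone and -0.17 ± 0.05 with DMSO, a difference of 1.60. In each of these 3 pairs the ratios of the groups did not overlap, and none passed the test.

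Other pairs overlapped between the groups. AURKA over MAD2L1 was 1.48 ± 0.32 with mitoxantrone and 1.30 ± 0.15 with DMSO, a difference of 0.18 (exact permutation p = 0.50, n = 3), which was between 0.00 and 0.31 with any 1 library left out. TTK over BUB1 was -1.81 ± 0.62 with mitoxantrone and -1.88 ± 0.16 with DMSO, a difference of 0.07 (exact permutation p = 0.90), which was -0.01 without DMSO 2 and -0.26 without mitoxantrone 2. The wide spread of TTK with mitoxantrone does not allow their falls to be called equal.

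**Figure D3:**
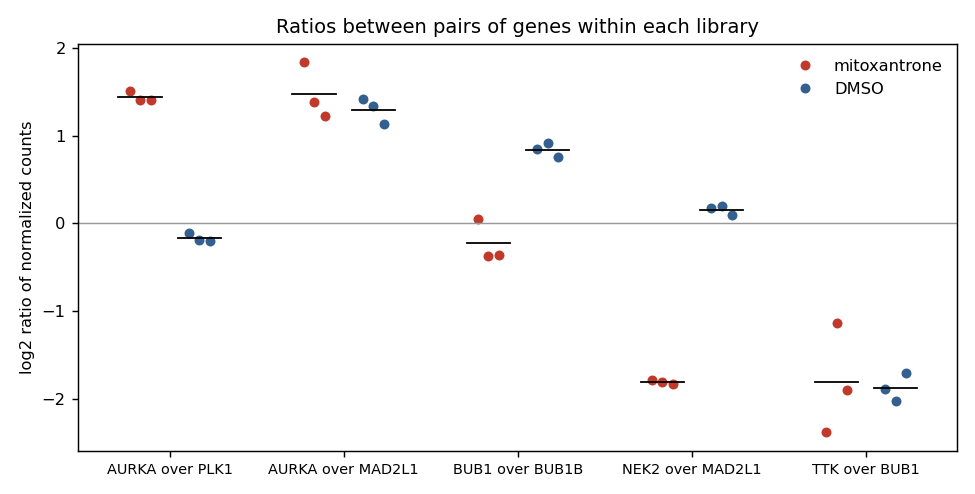
Log2 ratios of normalized counts for 5 pairs of genes, with each point 1 library (red, mitoxantrone; blue, DMSO) and each line the mean of 3. Mitoxantrone and DMSO libraries are apart for AURKA over PLK1, BUB1 over BUB1B and NEK2 over MAD2L1, and overlap for AURKA over MAD2L1 and TTK over BUB1.

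The genes varied more between mitoxantrone libraries than between DMSO libraries. The coefficient of variation of normalized counts ran from 7.85% (AURKA) to 30.1% (TTK) with mitoxantrone and from 1.97% (BUB1) to 9.85% (TTK) with DMSO, where reads were far more numerous. Mitoxantrone 3 was the highest mitoxantrone library for 7 of the 8 genes, all but TTK, and for 36.6% of the 1442 listed lower genes with a mean of at least 50 normalized counts. Mitoxantrone 1 was the lowest for 6 of the 8 genes, all but BUB1 and PLK4, and for 50.3% of those genes. The summed FPKM of the 8 genes was 5.16, 6.04 and 6.81 in mitoxantrone 1 to 3, against 129, 131 and 134 in DMSO 1 to 3. Mitoxantrone 1 was also the shallowest library, with 16681380 reads, and mitoxantrone 3 the deepest of its group, with 19352443, and the part of depth in these values was not tested.

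Annotation terms deposited with the 8 genes, for kinase function and for place in mitosis, were counted over the other listed genes. A gene can hold several of these terms, and differences between terms were not tested. Serine/threonine kinase activity was a term of 7 of the 8 genes, all but MAD2L1, and the 68 other listed genes with it split into 35 lower and 33 higher (edgeR, adjusted p under 0.05). The mitotic cell cycle term was held by 7 of the 8 genes, all but TTK, and of 163 other listed genes with it 153 were lower and 10 higher. BUB1, BUB1B, MAD2L1 and NEK2 carried the term for the kinetochore of condensed chromosomes, and all 34 other listed genes with it were lower (median log2 fold change -2.50). AURKA, NEK2, PLK1 and PLK4 carried the centrosome term, under which 79 other listed genes were lower and 13 higher. Every listed gene was called in one direction or the other, 41.1% lower and 58.9% higher.

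Of 11 checkpoint partners 6 were listed, and each of the 6 fell (median log2 fold change -2.64). Beside this and the lists that follow, 41.1% of all listed genes were lower, and genes not past the authors' threshold could not be counted. The largest falls were in CENPE, a kinetochore motor (-4.72 ± 0.16 SE; edgeR, adjusted p = 1.3e-27), and CASC5, an older symbol of KNL1, the scaffold that BUB1 and BUB1B bind (-4.70 ± 0.17). KNL1 averaged 21.7 normalized counts with mitoxantrone and 570 with DMSO. BUB3, MAD1L1, ZW10, TPR and MAD2L1BP were not listed, which does not mean that they were unchanged.

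Of 19 genes of the anaphase-promoting complex, the target of the checkpoint, 4 were listed: CDC20, UBE2C, UBE2S and FBXO5. All 4 fell (median log2 fold change -4.36), among them FBXO5 at -3.53 ± 0.14, which encodes EMI1, an inhibitor of the complex. UBE2C, its ubiquitin-conjugating enzyme, had a log2 fold change of -5.43 ± 0.15, and CDC20, the activator that MAD2 and BUBR1 hold, of -5.19 ± 0.10. CDC20 was at 1.96 ± 0.24 FPKM with mitoxantrone and 75.5 FPKM with DMSO. None of the 14 core subunits was listed.

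Activators and scaffolds of AURKA, PLK1 and PLK4 were listed in 8 cases of 10, and all 8 fell (median -2.33). TPX2, the spindle activator of AURKA, was at -4.33 ± 0.08, and STIL, the PLK4 partner in centriole formation, at -3.34 ± 0.12. Of 15 relatives in the Aurora, Polo-like and NEK families 3 were listed. AURKB, the kinase of the chromosomal passenger complex, was at -5.81 ± 0.13 and NEK4 at -1.04 ± 0.10, while NEK10 was higher at 1.31 ± 0.26 (edgeR, adjusted p = 1.3e-05), with 56.2 normalized counts with mitoxantrone and 22.5 with DMSO. NEK4 missed the threshold when tested for a change of more than 2-fold. PLK2, PLK3 and the other NEK genes of the list were not listed.

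Of 12 other kinases of mitosis 11 were listed and fell (median -3.23). PBK was at -5.19 ± 0.16, and CDK1, the main mitotic kinase, at -5.19 ± 0.14. Of 19 genes of phosphatases and their regulators, which include the PP2A inhibitors ENSA and ARPP19, 6 were listed, 5 lower and 1 higher. CDC25C (-4.75 ± 0.20) and CDC25A (-2.37 ± 0.16), which activate cyclin-dependent kinases, fell most. PPP2R1A, the scaffold subunit of protein phosphatase 2A, was higher at 1.02 ± 0.06, but not when tested for a change of more than 2-fold. PPP2R2A, the other listed subunit gene of this phosphatase, was lower at -1.20 ± 0.08. Regulators of cell cycle transcription, among them E2F1, E2F2 and E2F8, which are known mainly for G1/S genes, were listed in 9 cases of 22, and these 9 fell (median -3.86), MYBL2 at -5.69 ± 0.12 and E2F2 at -5.68 ± 0.26. E2F2 had 4.26 normalized counts with mitoxantrone and 215 with DMSO.

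**Figure D4:**
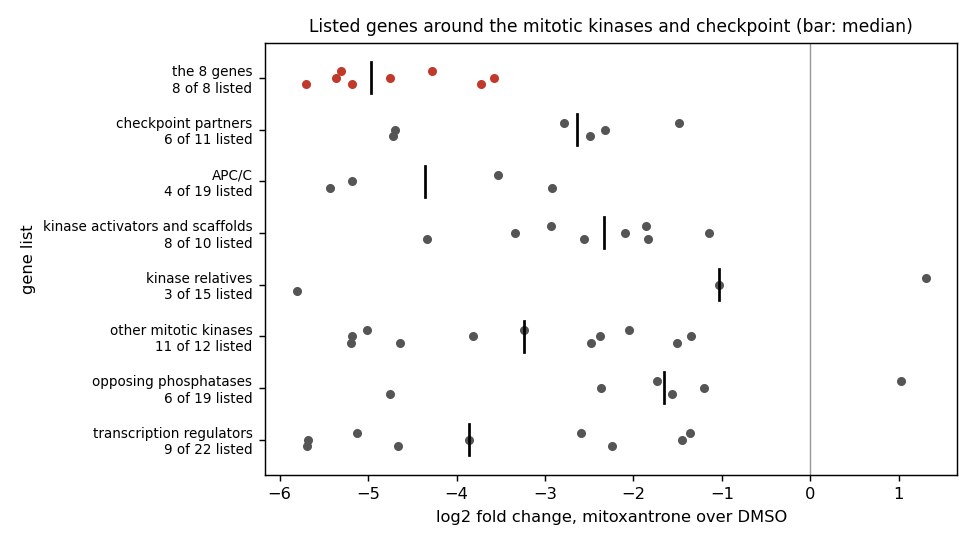
Each point is the log2 fold change, mitoxantrone over DMSO, of 1 listed gene of the 8 genes (red) or of a related list (grey), spread in height for clarity, and each bar is the list's median. All points lie below 0 except NEK10 (1.31) and PPP2R1A (1.02). The 8 genes have the lowest median, -4.97, but AURKB, a kinase relative, lies lower than each of them, at -5.81. Medians cover listed genes only, and the 8 genes and the lists were chosen with earlier results of these data known.

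The genes most like the 8 in pattern were found by the root mean square difference, over the 6 libraries, between a gene's log2 normalized counts, centred on their mean, and the mean of the 8 centred profiles. Among 2614 other listed genes with a mean of at least 50 normalized counts, the nearest were ANLN (anillin, a cytokinesis scaffold) at a difference of 0.08, RRM2 (a subunit of ribonucleotide reductase) at 0.10, CDC25C at 0.12, FOXM1 (a transcription factor of G2 and M phase genes) at 0.12 and CCNA2 (cyclin A2) at 0.13. Their log2 fold changes ran from -4.98 ± 0.12 (CCNA2) to -4.63 ± 0.10 (ANLN). ANLN, for example, had 79.8, 84.7 and 110 normalized counts in mitoxantrone 1 to 3, against 2369, 2255 and 2260 in DMSO 1 to 3. With only 2 conditions such likeness mainly reflects the size of the fall.

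Some reads of these genes may come from other loci. GENCODE 29 names 5 processed pseudogenes after AURKA, NEK2 and BUB1, none of them listed, and reads could be split among such copies. On the opposite strand it places a non-coding RNA over 117 bases of MAD2L1 and another over 641 bases of PLK1, and a 42-base overlap of PLK1 with ERN2. On the same strand, BUB1B shares 3709 bases with the read-through gene BUB1B-PAK6, NEK2 holds the processed pseudogene FDPSP8 over 1089 bases, and PLK4 a small nuclear RNA gene over 92 bases. None of these neighbours was listed, and whether the libraries kept strand is not given in the sources used here, so reads over these stretches cannot be assigned with certainty.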

How the data were processed

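RNA of A549 cells was sequenced in 3 mitoxantrone and 3 DMSO libraries. Tools named in the submitters' processing notes, without roles, are HISAT2 2.0.1, SAMtools 0.1.19, HTSeq 0.6.1, Cufflinks 2.2.1, cutadapt 1.9.1 and DESeq2. No label or header names the genome build. Per the file headers, the authors deposited raw read counts and FPKM per gene and library, a gene length (other value, in bases), a mean normalized count (a signal: counts over size factors), a log2 fold change with its standard error, a score (their quotient), and p-values before and after adjustment.

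The table holds genes past a threshold only (smallest absolute log2 fold change 1.00, largest adjusted p 0.0497). Size factors were recovered from the deposited mean normalized counts by least squares (largest relative residual 4.8e-10), and library totals from counts, lengths and FPKM of at least 20. The main test was edgeR 4.0.16 (R 4.3.3), quasi-likelihood F, no filter or covariate, Benjamini-Hochberg over 4546 genes, threshold 0.05. SE is the log2 fold change over the root of F. The fit was tested on simulated data, where it recovered 61% of changes of 1 log2 unit and 82% of changes of 2. Of the simulated calls 2.72% were false. The simulated spread was set wider than the biological coefficient of variation fitted here, 6.69%. Pair ratios used normalized counts plus 0.5, and profiles used plus 1. Alternatives used limma 3.58.1 and DESeq2 1.42.0. Named genes were the 8, at most the 2 largest falls and 2 largest rises of each list, and the 5 nearest profiles. FBXO5, UBE2S, E2F1, E2F8 and PPP2R2A were named outside this rule, after their values were seen. The 8 genes and the lists were chosen with earlier results of these data known. The authors' deposited table gave log2 fold changes of the 8 genes that were smaller in size than edgeR's by 0.01 to 0.21 (TTK).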

Additional observations from a re-analysis of the deposited data

How the results depend on the processing

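All 8 genes were called lower under each of the 16 alternatives. Over the alternatives 434 values were set against the main ones, and 427 of them were classed as unchanged. For fold changes this meant the same direction and side of the threshold, and for the median a shift within the replicate spread. Counts could move within a set ratio, and pair differences had only to keep their sign. The log2 fold changes of the 8 genes passed in 128 of 128 cases, the 8 genes under 16 alternatives each (largest adjusted p 1.0e-06). The stricter threshold of 0.01 reused the main fit. Since the authors had selected the listed genes on these libraries, this passing adds little. TMM moved log2 fold changes by -0.26, library totals by -0.08 and column totals by -0.06, with no change of direction for the 8 genes. TMM and column totals were computed from the listed genes only, all selected for a change, so they are weak checks of scaling. Their median, -4.97, was -4.45 with limma on log2(FPKM + 0.1) and -3.14 on log2(FPKM + 1), where the pseudocount by construction shrinks folds of genes under 1 FPKM (PLK1 then at -4.08, NEK2 at -3.84, AURKA at -3.31 and TTK at -2.46, so that the order of the genes changed), and -5.08 to -4.91 with 1 library left out. Against a 2-fold change, listed kinase relatives that were lower numbered 1 in place of 2 and phosphatases that were higher 0 in place of 1, since NEK4 and PPP2R1A are near that fold. In the upstream 250 bases alone TTTGAA or TTCGAA was found in 2 of 6 genes in place of 5, since in BUB1, MAD2L1 and PLK4 it lies after the start. TTK over BUB1 ranged from -0.26 to 0.36 with 1 library left out. Deviations of libraries with the same number had correlations of -0.07, -0.08 and 0.03 over 2622 genes, which does not pair them, and with the replicate block the median was -4.97 and 4546 genes were called. Few reads limit TTK (30 over the mitoxantrone libraries), PLK4 (51) and NEK2 (52).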
